A study of Mus musculus with 6 samples.

Results

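The miR-148 and miR-152 family is a group of microRNAs (miRNAs) defined by a common seed, and it was followed here in N2A cells, also called Neuro2A, which are a mouse neuroblastoma line. Its members were taken by name from the mouse-named entries of the deposited tables, with every arm and variant of mmu-miR-148a, mmu-miR-148b and mmu-miR-152 kept. This gave 5 of 1080 entries, or 5 of 754 named after mouse miRNAs: miR-148a-3p, miR-148b-3p, a miR-148b-5p entry with the suffix R-1, miR-152-3p and miR-152-5p. The suffix is read here as a form that lacks the last base at the 3′ end, and no entry for miR-148a-5p was among those analysed. Of the 6 small RNA libraries, 3 came from cells given an siRNA against circCpsf6, a circular RNA (si-circCpsf6), and 3 from cells treated with a control siRNA (si-NC). Both siRNAs were used at 100 nM with the same lipid reagent, and all libraries came from this single line. The comparison asks whether silencing circCpsf6 goes with another level of these miRNAs. circCpsf6 itself was not analysed here, and how far it was silenced is not known for any library.

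A miRNA hairpin is cut to a short duplex, one arm of which is kept by an Argonaute protein and pairs through its seed, bases 2 to 8, with target messenger RNAs to repress them. In this family the 3p arm is the one usually kept, so its members can act on overlapping targets. In human and mouse cells these miRNAs are known as repressors of the maintenance DNA methyltransferase gene Dnmt1, and miR-148a also of the LDL receptor and of the cholesterol exporter Abca1. miR-148a is best known as an abundant miRNA of liver and of secretory cells, and miR-152 has been studied in human neuroblastoma cells treated with retinoic acid.

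The mature sequences are shown because the members are told apart by few bases. The letters are from RefSeq (GRCm38.p6), where all 5 entries and the remaining miR-148a-5p were matched by name apart from the suffix, and capitals mark the seed.
miR-148a-3p: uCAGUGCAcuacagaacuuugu
miR-148b-3p: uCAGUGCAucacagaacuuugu
miR-152-3p: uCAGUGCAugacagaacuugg
miR-148a-5p: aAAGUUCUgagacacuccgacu
miR-148b-5p: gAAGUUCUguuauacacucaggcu
miR-152-5p: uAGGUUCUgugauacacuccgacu
The seed CAGUGCA was held by 3 of the 1679 mouse mature miRNAs in that table, which are the 3p arms of this family. Counted from 1 at the 5′ end, miR-148b-3p differs from miR-148a-3p by C9U and U10C, and the other 20 of 22 bases are the same. miR-152-3p differs from miR-148b-3p by C10G and U20G over the 21 bases they share. The 5p arms are less alike when compared base by base from the 5′ end without gaps. On this count miR-148b-5p and miR-152-5p have 19 of 24 bases in common, and miR-148a-5p and miR-148b-5p 13 of 22. miR-148a-5p and miR-148b-5p nevertheless share the seed AAGUUCU. They are 22 and 24 bases long, so part of their mismatch could be a shift of position, and no alignment with gaps was made. How the authors assigned reads between such near-identical 3p arms is not given in the sources used here, so the split between them is uncertain.

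The hairpins lie on separate chromosomes (GRCm38, GENCODE M21, which is not the authors' build). On chromosome 15, miR-148b sits within an intron of Copz1 and on its strand, with the hairpin at 103285125 to 103285221. On chromosome 11, miR-152 sits within an intron of Copz2, also on the strand of the gene, with the hairpin at 96850393 to 96850465. Copz1 and Copz2 are paralogs that encode the zeta subunit of the COPI coat, which carries vesicles from the Golgi back to the endoplasmic reticulum. On chromosome 6, the miR-148a hairpin (51269812 to 51269910) overlaps no annotated gene other than its own. The nearest protein-coding gene is Nfe2l3, at a distance of 162760 bases.

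Each library was deposited as the authors' normalized read numbers, rounded to whole numbers, with totals of 2874209 to 3268351 in si-circCpsf6 and 2570449 to 3045133 in si-NC. Such values are not counts, the depth of sequencing was not worked out from them, and no counting interval was computed. The libraries had 747 to 880 entries above 0 in si-circCpsf6 and 578 to 866 in si-NC. The lowest number belonged to si-NC replicate 3, which stood apart in having 16 entries with values of 1 to 18, against 180 to 312 in the other libraries. As a check on the cell label, all 9 of the neuronal and neuroendocrine miRNAs chosen as markers had values in every library. Their sums were 251689 to 399453 in si-circCpsf6 and 156419 to 268284 in si-NC. A miR-7a-5p form gave most of each sum, at 198948 to 364458 in si-circCpsf6 and 88548 to 238295 in si-NC. Liver miR-122 was listed at 0 in si-circCpsf6 and at up to 5 in si-NC. Fibroblast and smooth muscle miRNAs, as a list of 4, were also abundant, with sums of 86286 to 109845 in si-circCpsf6 and 67845 to 107016 in si-NC. Sums over 5 epithelial miRNAs were 7 to 62 in si-circCpsf6 and 151 to 431 in si-NC, and 1 of the 5 had a value above 0 in every library. Endothelial miR-126a had sums of 4321 to 6634 in si-circCpsf6 and 4061 to 6114 in si-NC. Of 4 muscle miRNAs 2 had values in every library, with sums of 43 to 72 in si-circCpsf6 and 49 to 132 in si-NC. Of 5 blood cell miRNAs 1 did, with sums of 13 to 32 in si-circCpsf6 and 27 to 46 in si-NC. A value in every library thus does not by itself single out neuronal cells. The part of these lists in the results below was not tested. Nothing in the labels says that replicates came from separate cultures, and the p-values therefore reflect the variation among these particular libraries, part of which could be technical.

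In N2A cells the family consisted almost wholly of miR-148b-3p and miR-152-3p, and miR-148a-3p was close to 0 in both groups. None of the 5 entries passed the test between si-circCpsf6 and si-NC, and for each of them the libraries of the groups overlapped. The order of levels was the same in every library: miR-148b-3p was highest, followed by miR-152-3p, miR-148b-5p, miR-152-5p and miR-148a-3p. The ranges of neighbours in this order did not overlap across the 6 libraries. These levels are reads per mature entry, not divided by length, and the mature forms are 21 to 24 bases long. In RNA from whole cultures, fewer cells with a miRNA and less of it per cell cannot be told apart.

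**Figure D1:**
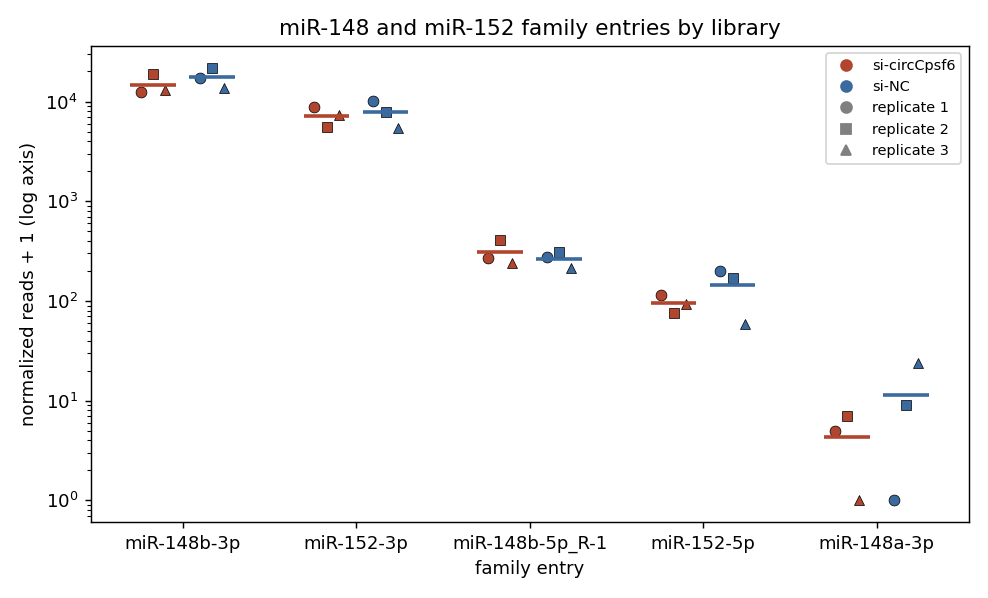
Normalized reads plus 1 (log axis) of the 5 family entries in each library, with si-circCpsf6 libraries left of si-NC libraries, marker shapes for the replicate number and bars at the group means. miR-148b-3p and miR-152-3p lie between 5384 and 21894 in every library, while miR-148a-3p does not exceed 23.

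miR-148b-3p, the most abundant member, was listed at 12344, 18671 and 12997 in si-circCpsf6 and at 17337, 21894 and 13535 in si-NC. It ranked between 38 and 58 among the 753 distinct mouse-named entries of a library and made up 0.429% to 0.748% of a library's total. The lowest value of all came from si-circCpsf6, but si-circCpsf6 replicate 2 lay above 2 of the 3 si-NC libraries. Means were 14671 ± 3480 in si-circCpsf6 and 17589 ± 4185 in si-NC (SD, n = 3 each), which is a ratio of 0.834. The log2 change was -0.26 (SE 0.29, limma adjusted p = 0.916), and its 95% interval corresponded to 0.527 to 1.32 times the si-NC level.

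miR-152-3p, the second 3p arm at a high level, was listed at 8805, 5509 and 7299 in si-circCpsf6 and at 10212, 7914 and 5384 in si-NC. Every si-circCpsf6 library fell inside the si-NC range. Its means were 7204 ± 1650 in si-circCpsf6 and 7837 ± 2415 in si-NC (SD, n = 3 each). The log2 change was -0.10 (SE 0.32, limma adjusted p = 0.991), with a 95% interval of 0.564 to 1.55 times si-NC. Its sign was not stable, since leaving out si-NC replicate 1 gave a log2 change of 0.12 and leaving out si-circCpsf6 replicate 2 one of 0.081.

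Of the partner arms, miR-148b-5p was listed at 270, 408 and 238 in si-circCpsf6 and at 273, 310 and 212 in si-NC. Only si-circCpsf6 replicate 2 lay outside the si-NC range, and without it the log2 change of 0.18 (SE 0.37, limma adjusted p = 0.976) was -0.046. miR-152-5p was listed at 113, 74 and 93 in si-circCpsf6 and at 199, 170 and 58 in si-NC. The si-NC libraries of miR-152-5p thus lay on either side of all si-circCpsf6 libraries, with replicate 3 lowest. Means of miR-152-5p were 93.3 ± 19.5 in si-circCpsf6 and 142 ± 74.5 in si-NC (SD, n = 3 each). Its log2 change was -0.44 (SE 0.58, limma adjusted p = 0.950), with a 95% interval of 0.294 to 1.84 times si-NC. Without si-NC replicate 3 it was -0.99, with an adjusted p of 0.213.

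miR-148a-3p, the member known from liver, was listed at 4, 6 and 0 in si-circCpsf6 and at 0, 8 and 23 in si-NC. Its highest value came from si-NC replicate 3, the library in which few entries had low values, and the other 5 libraries ran from 0 to 8. The log2 change of -0.88 (SE 1.40, limma adjusted p = 0.960) rested on that library and was 0.12 without it. It was -2.17 without si-NC replicate 1, where the entry is listed at 0, and -0.02 without si-circCpsf6 replicate 3, also at 0. Values this low give no usable measure of a difference, and its 95% interval on the log2 scale ran from -4.09 to 2.34.

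**Figure D2:**
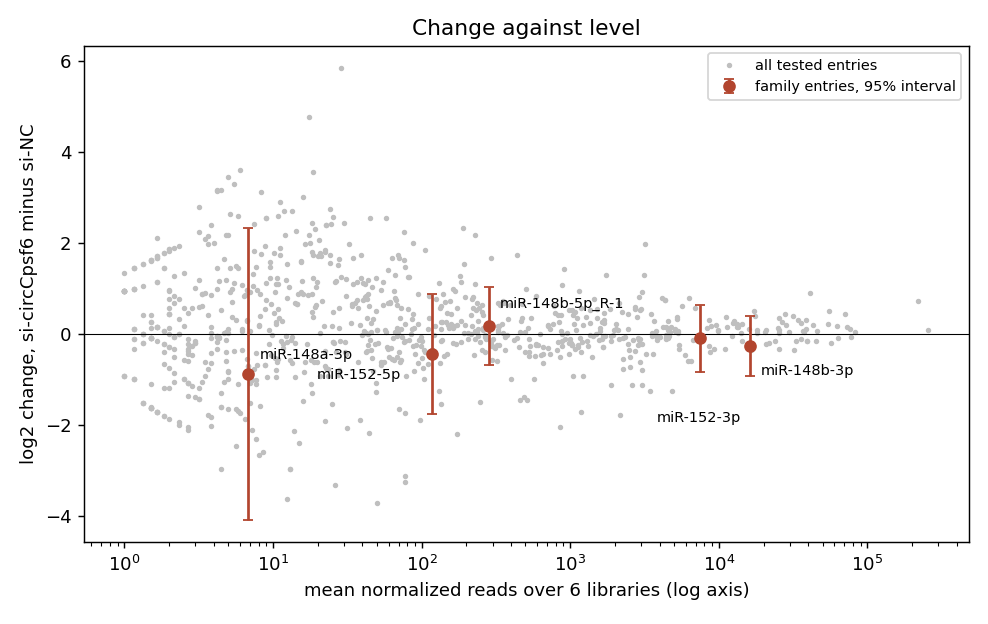
Log2 change (si-circCpsf6 minus si-NC, on the log2(value + 1) scale) against the mean normalized reads over the 6 libraries (log axis) for the 933 tested entries in grey and the 5 family entries in red, with bars for the 95% intervals. All 5 intervals include 0, and the interval of miR-148a-3p is the widest, from -4.09 to 2.34.

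All 5 entries passed the filter on low values, which asked for an average of at least 1. At an adjusted p under 0.05 no entry was called, 0 of 5 in the family and 0 of 933 overall (0%), by limma. At an unadjusted p under 0.05 the counts were 0 of 5 and 61 of 933 (6.54%). The groups were apart, with every library of one above every library of the other, for 0 of 5 family entries and for 110 of 933 overall (11.8%). Without si-NC replicate 3, 1 of 5 family entries, miR-152-5p, had an unadjusted p under 0.05, beside 14.5% of all entries, and 0 of 5 an adjusted one, beside 0.429%. With array weights, which let limma give each library a weight of its own, these counts were 2 of 5 beside 23.7% and 0 of 5 beside 3.32%. The median log2 change was -0.26 over the family, with 4 entries lower and 1 higher, against a median of 0.078 over all entries tested, 44.5% of which were lower. In the authors' deposited table, the unadjusted p-values of the 5 entries ran from 0.373 for miR-152-5p to 0.729 for miR-152-3p.

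**Figure D3:**
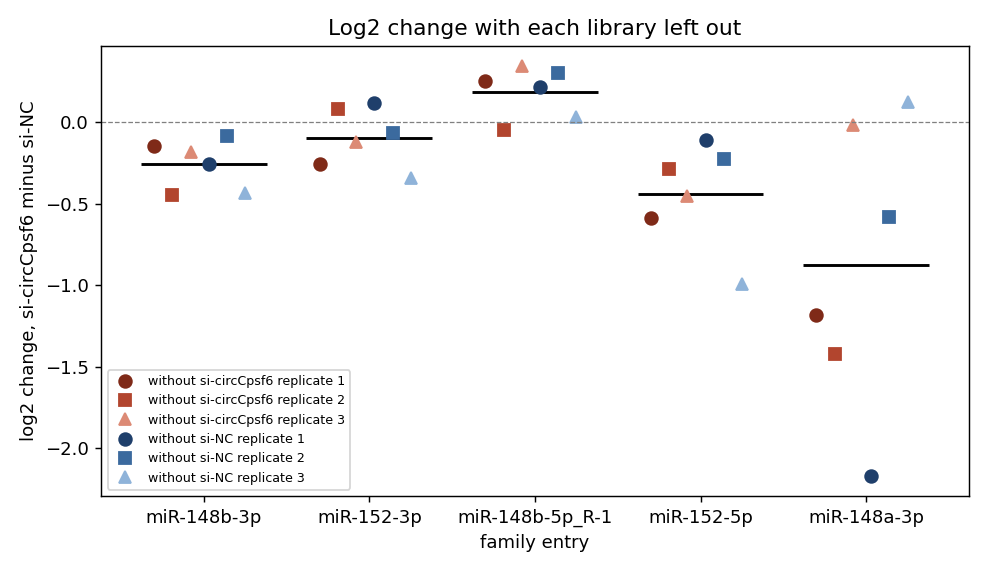
Log2 change of the 5 family entries (si-circCpsf6 minus si-NC) with each library left out in turn, one marker per left-out library, and with all libraries (black lines). miR-148b-3p and miR-152-5p stay below 0 throughout, at -0.45 to -0.088 and -0.99 to -0.11, whereas miR-148a-3p, miR-148b-5p and miR-152-3p cross 0.

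Summed over its entries, the family came to 21536, 24668 and 20627 normalized reads in si-circCpsf6 and to 28021, 30296 and 19212 in si-NC. The sums of si-NC replicates 1 and 2 lay above all si-circCpsf6 libraries and that of replicate 3 below them. As a share of the library total, the family held 0.749%, 0.755% and 0.716% in si-circCpsf6 and 0.920%, 1.04% and 0.747% in si-NC. The ratio of the mean sums was 0.862. No test was run on the sum, since its members were chosen together.

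miR-148b made up 58.6%, 77.3% and 64.2% of the family sum in si-circCpsf6 and 62.8%, 73.3% and 71.6% in si-NC, and nearly all of the remainder was miR-152. The group means of this share differed by -2.54 points, less than the SD of 9.64 points in si-circCpsf6 and of 5.60 points in si-NC. The ratio of miR-148b-3p to miR-152-3p was 1.40, 3.39 and 1.78 in si-circCpsf6 and 1.70, 2.77 and 2.51 in si-NC. Both the lowest and the highest of these ratios came from si-circCpsf6. miR-148a held at most 0.120% of the sum, in si-NC replicate 3. Together the 3p arms with the seed CAGUGCA accounted for 98.0% to 98.6% of the family sum in every library.

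For miR-148b the groups did not overlap in the balance of its arms. Its 3p value was 45.7, 45.8 and 54.6 times its 5p value in si-circCpsf6 and 63.5, 70.6 and 63.8 times in si-NC. All si-circCpsf6 libraries were below all si-NC libraries, with means of 48.7 ± 5.12 in si-circCpsf6 and 66.0 ± 4.02 in si-NC (SD, n = 3 each). The same separation, in either direction, was found for 15 of 198 hairpins with both arms tested (7.58%), and in this direction for 5 of 198 (2.53%). Of the family, 1 of 2 hairpins separated. The log2 change of the ratio was -0.44 (SE 0.34, limma adjusted p = 0.998 over the 198 hairpins), so it did not pass. The residual SD of this ratio was 0.12 on the log2 scale, against a median of 0.91 over all hairpins. Of the 198 hairpins, 2 had one at or under that value, miR-148b itself included. Since limma draws each SE toward that of the other hairpins, the SE is larger than the hairpin's own spread would give. Among the 98 hairpins with a mean of 100 or more in each arm, a restriction chosen after seeing the data, the SE was 0.24 (limma adjusted p = 0.998, with 0 hairpins or 0% called). There the groups were apart for 8 of 98 hairpins (8.16%). The 5p value is that of a single listed form, R-1, so the ratio also depends on which forms were listed.

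For miR-152 the 3p value was 77.9, 74.4 and 78.5 times the 5p value in si-circCpsf6 and 51.3, 46.6 and 92.8 times in si-NC. The si-circCpsf6 libraries lay close together, between si-NC replicates 1 and 2 on the lower side and si-NC replicate 3 on the upper. The log2 change was 0.34 (SE 0.42, limma adjusted p = 0.998), and without si-NC replicate 3 it was 0.65 (adjusted p = 0.439, with 1 of 198 hairpins, or 0.505%, called). The changes of the hairpins thus had opposite signs, but neither passed, and the difference between them was not tested.

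**Figure D4:**
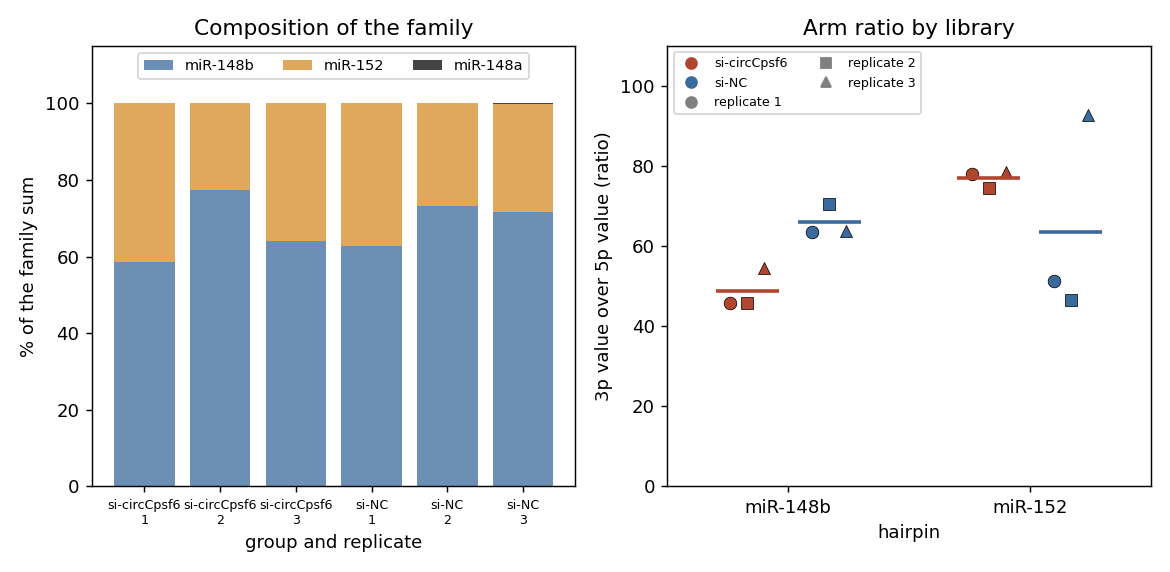
Left, the share of the family sum (%) held by miR-148b, miR-152 and miR-148a in each library. Right, the ratio of the 3p to the 5p value of miR-148b and miR-152, one marker per library with bars at the group means; for miR-148b the si-circCpsf6 libraries (45.7 to 54.6) lie below the si-NC libraries (63.5 to 70.6).

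Likeness across libraries was taken as a description of the members' patterns. On the log2 scale over the 6 libraries, Pearson's r was 0.90 between miR-152-3p and miR-152-5p and 0.68 between miR-148b-3p and miR-148b-5p, but 0.039 between miR-148b-3p and miR-152-3p. These are descriptions over 6 points that share their library and normalization. By the same measure, among 351 other mouse-named entries with a mean of 100 or more, the closest to miR-148b-3p were miR-130b-5p (r = 0.97), the miR-883b-5p form R+2 (r = 0.96) and miR-26a-2-3p (r = 0.93). Closest to miR-152-3p were miR-8114 (r = 0.83), miR-26a-5p (r = 0.83) and mir-466f-1-p3 (r = 0.81). For miR-148a-3p they were a miR-29c-5p form (r = 0.97), a miR-671-5p form (r = 0.91) and a miR-350-5p form (r = 0.91), and given its values near 0 this likeness carries little weight. The closest entry among 351 will be close by selection alone.

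Other miRNAs reported to act on the known targets of the family were also compared. Of 9 miRNAs reported, mostly in human cells, to repress DNA methyltransferase genes (miR-29a, miR-29b, miR-29c, miR-101a, miR-101b, miR-126a, miR-143, miR-185 and miR-342), 0 passed by limma (0% of all entries). Their log2 change was above 0 for 7 and below 0 for 2, with a median of 0.10 against 0.078 over all entries tested. miR-29b-3p is among the 7 although its ratio of group means was 0.694, with si-NC replicate 3 highest. Among them a miR-143-3p form was highest and stood at 77164 ± 12302 in si-circCpsf6 and 69667 ± 17219 in si-NC (SD, n = 3 each). The next, miR-29a-3p, which acts on Dnmt3a and Dnmt3b, was listed at 71296, 58017 and 64901 in si-circCpsf6 and at 44778, 42453 and 48633 in si-NC, with groups that did not overlap (log2 change 0.51, SE 0.24, limma adjusted p = 0.732). The groups were also apart for a miR-101b-3p form with the suffix L-1R+4, named after its values were seen. It stood at 35722 ± 2849 in si-circCpsf6 and 27329 ± 1841 in si-NC (SD, n = 3 each; log2 change 0.39, limma adjusted p = 0.732). What the L part of this suffix means for the seed was not examined. Separation was thus seen for 2 of 9, beside 11.8% of all entries.

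Of 8 miRNAs reported to repress the LDL receptor or Abca1 (miR-27a, miR-27b, miR-33, miR-128, miR-130b, miR-144, miR-301b and miR-758), 0 passed by limma (0% of all entries) and 0 had groups apart (11.8% of all entries), shares at which so short a list can hold none. No direction is given for this list. A miR-758-3p form was listed at 0, 0 and 13 in si-circCpsf6 and at 0 in every si-NC library. It thus passed the filter through a single si-circCpsf6 library. miR-144-3p was listed at 0, 0 and 6 in si-circCpsf6 and at 3, 0 and 0 in si-NC. For a miR-33-5p form and miR-130b-3p the log2 change was above 0 (0.55 and 0.062). Their ratios of the group means were nevertheless 0.824 and 0.935, with si-NC replicate 3 highest for each. At the top of this list miR-27b-3p averaged 258378 in si-circCpsf6 and 255446 in si-NC, and a miR-27a-3p form averaged 25515 in si-circCpsf6 and 24325 in si-NC. No member of either list had an unadjusted p under 0.05, beside 6.54% of all entries.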

How the data were processed

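Small RNA was sequenced from N2A cells, 3 libraries per group, grouped by sample titles. Per the labels' protocols, libraries were made from 1 ug of Trizol-extracted RNA with the TruSeq small RNA kit. Per the submitters' processing notes the build was mm9. What aligned, counted and normalized the reads is not given in the sources used here. Scores, the normalized read numbers the authors deposited as whole numbers, were used and are not counts. A mean of the si-NC libraries, a log2 fold change and a p-value were also deposited by the authors, per the file headers.

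Rows with identical values and the same name apart from the suffix counted once (17 merged, none in the family). The 933 entries with a mean of 1 or more were compared on log2(value + 1) with limma 3.58.1 under R 4.3.3. The variance was trended, group was the single term, and p-values were adjusted by Benjamini-Hochberg over all entries (threshold 0.05). Log2 changes on this scale understate those of low entries. Ratios of 3p to 5p sums were tested likewise over 198 hairpins. The limma step was tested on simulated data.

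The members and lists were chosen with earlier results of these data known. Named were every family entry, the 3 closest other miRNAs to each member's most abundant entry, and the 2 most abundant of each list. miR-29b, miR-33, miR-101b, miR-130b, miR-144 and miR-758 were named after their values were seen, as was miR-7a among the markers. Same-numbered replicates deviated together with r of 0.049, 0.48 and 0.40, and the numbers were not treated as pairs. Alternatives were other pseudocounts (0.1 and 5), filters and scalings, each library left out, the replicate number as a block, robust variance, array weights, and identical rows kept apart or merged across names. Python 3.11.15, pandas 2.3.3 and matplotlib 3.10.9 were used outside R.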

Additional observations from a re-analysis of the deposited data

How the results depend on the processing

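The number of entries called by limma was 0 under all alternatives but array weights (31) and the removal of si-NC replicate 3 (4), so that it ran from 0 to 4 with a library left out. No family entry and neither arm ratio of the family passed under any alternative run. The log2 change of miR-148a-3p became 0.71 with array weights, which gave si-NC replicate 3 a weight of 0.144, and ran from -2.17 (without si-NC replicate 1) to 0.12 (without si-NC replicate 3) with a library left out. That of miR-148b-5p ran from -0.046 (without si-circCpsf6 replicate 2) to 0.34, and that of miR-152-3p from -0.35 (without si-NC replicate 3) to 0.12 (without si-NC replicate 1). miR-148b-3p and miR-152-5p were lower under all 17 alternatives (-0.47 to -0.088 and -0.99 to -0.11). The cause was not tested. With array weights miR-148b-3p and miR-152-5p had an unadjusted p under 0.05 (0.0433 and 0.0400), beside 23.7% of all entries, and adjusted p-values of 0.200 and 0.192. Over the alternatives the log2 change of the arm ratio was -0.53 to -0.39 for miR-148b and 0.16 to 0.65 for miR-152, and the log2 difference of the family sums was -0.39 to -0.084. The difference in the share of miR-148b in the family, -2.54 points with all libraries, moved between -7.86 (without si-circCpsf6 replicate 2) and 1.52 points (without si-circCpsf6 replicate 1). With variants left out miR-148b has no 5p entry, and with a mean of 10 or more miR-148a-3p was not tested.

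With the replicate block, 0 entries passed, 89 had an unadjusted p under 0.05 (61 without the block), and the adjusted p of miR-148b-3p was 0.594. The block changed no call. Same-numbered libraries did not all correlate best with each other (r = 0.049 for number 1, against 0.18 between si-NC replicate 1 and si-circCpsf6 replicate 2). The read depth was not worked out here, which limits what can be said of miR-148a-3p.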

Other observations

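One further entry carries a family name but that of another species, mdo-miR-152-3p with the suffix R+3, read here as an opossum-named form extended at the 3′ end. It was listed at 5, 5 and 0 in si-circCpsf6 and at 7, 8 and 0 in si-NC, and it was not counted among the members. In the libraries with a value it was far below the mouse-named miR-152-3p, which stood at 5509 or more in those 4 libraries.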
